A study of Mus musculus with 9 samples.

Results

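The Btg and Tob genes form the antiproliferative (APRO) family, and 5 of them, Btg1, Btg2, Btg3, Tob1 and Tob2, were followed through 3 stages of neuron production in the mouse cortex. They were taken by symbol from a table of 21210 genes and filled 6 rows, because Tob2 had a main row and a second, shorter row. Values were normalised read counts for 9 libraries of poly-A RNA, made from the lateral cortex of C57BL/6 embryos at embryonic day 14.5. All embryos carried reporters of both Btg2 and Tubb3, the gene of a neuronal beta-tubulin. Cells without the Btg2 signal were the proliferating progenitors, cells with it were the differentiating progenitors, and cells with the Tubb3 signal were the neurons, with 3 libraries in each group. The colour of the Btg2 reporter is red by the sample titles but green by the genotype label. Groups were therefore set by title and labelled cell type. Each library came from pooled cells of more than 3 embryos of different litters, and the labels call the libraries of a group biological replicates. The series asks which transcripts, among them long non-coding RNAs, change when progenitors commit to neurogenesis.

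Proteins of this family share an amino-terminal APRO domain that binds Cnot7 and Cnot8, deadenylase enzymes of the CCR4-NOT complex, which shortens the poly(A) tails of messenger RNAs. Through this contact Btg and Tob proteins speed the decay of messenger RNAs, and most members slow cell division when they are overproduced. Btg2, also known as Tis21, is switched on in progenitors of the cortex that go on to make neurons, which is why its reporter was used to sort the cells. Tob1 and Tob2 carry an additional carboxy-terminal part that binds the cytoplasmic poly(A)-binding protein Pabpc1.

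On the reference build GRCm38, Btg1 (ENSMUSG00000036478) lies at chr10:96617006-96622809 on the plus strand and Btg2 (ENSMUSG00000020423) at chr1:134075170-134079120 on the minus strand. Btg3 (ENSMUSG00000022863) lies at chr16:78332637-78377192 on the minus strand. Tob1 (ENSMUSG00000037573) lies at chr11:94211454-94215495 on the plus strand and Tob2 (ENSMUSG00000048546) at chr15:81848272-81858796 on the minus strand. All 5 are annotated as protein coding. Their coding sequences measured 516 bases for Btg1, 477 for Btg2, 759 for Btg3, 1089 for Tob1 and 1038 for Tob2, stop codon included. Tob1 and Tob2 were identical at 75.3% of 578 aligned coding bases, and Btg1 and Btg2 at 73.2% of 433. Btg1 and Btg3 reached 74.1%, but over a shorter stretch of 189 bases. Between Btg and Tob genes the identity lay between 61.6% and 67.8%, over 195 to 255 aligned bases.

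Among these genes Btg3 has a near relative that bears on its count. Gm7334 (ENSMUSG00000044645), an annotated processed pseudogene at chr17:50698688-50699443 on the plus strand of GRCm38, matched bases 217 to 972 of the Btg3 transcript over its whole length of 756 bases with 0 differences. That stretch is coding in Btg3 and spans 3 of the 4 exon junctions of the gene, so the copy carries the spliced order. The sequence around 1 of these junctions is shown because it is where a read from the spliced Btg3 transcript and a read from the copy are the same letters. Capitals mark the bases after the exon junction of Btg3, and both lines run 5′ to 3′, as bases 360 to 419 of the Btg3 transcript and bases 144 to 203 of the copy.
Btg3: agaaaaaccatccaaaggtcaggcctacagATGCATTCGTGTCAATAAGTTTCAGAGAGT
Gm7334: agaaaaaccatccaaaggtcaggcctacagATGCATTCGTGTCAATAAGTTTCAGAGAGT
Of 1365 windows of 50 bases along the Btg3 transcript, 707 (51.8%) were found letter for letter in Gm7334. The same count was 130 of 4952 windows (2.6%) for Btg1, all shared with the processed pseudogene Gm14519 on chromosome X, and 0 for Btg2 and Tob1. For Tob2 it was 160 of 4102 windows (3.9%), in an end that overlaps the gene Gm49476 of the opposite strand by 207 bases. The sources used here do not give how reads that match at several places were counted, or whether counting used strand, so Btg3 is reported as uncertain and set beside its copy.

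Btg1 and Btg2 are a close pair in coding sequence. The 250 bases before their transcription starts are shown side by side as a description. They are RefSeq windows on GRCm38.p6, written 5′ to 3′ in the direction of transcription. Capitals mark ACGTCA, a half-site of the cAMP response element, or its reverse complement TGACGT, and TATAAA, the letters of a TATA box.
Btg1, chr10:96616751-96617000, plus strand: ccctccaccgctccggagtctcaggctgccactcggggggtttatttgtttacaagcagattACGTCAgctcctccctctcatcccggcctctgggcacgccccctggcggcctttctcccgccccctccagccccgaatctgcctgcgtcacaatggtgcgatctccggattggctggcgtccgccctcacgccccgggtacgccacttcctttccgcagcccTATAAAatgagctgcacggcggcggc
Btg2, chr1:134079156-134079405, minus strand: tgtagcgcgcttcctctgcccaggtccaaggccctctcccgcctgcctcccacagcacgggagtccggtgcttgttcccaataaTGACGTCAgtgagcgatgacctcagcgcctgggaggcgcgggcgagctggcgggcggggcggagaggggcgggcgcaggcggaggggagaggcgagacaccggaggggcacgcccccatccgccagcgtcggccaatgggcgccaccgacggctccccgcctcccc
The search covered both strands of windows of 300 bases, 250 before and 50 after the start, for all 5 genes, Btg3 with 2 such windows. The Btg2 window held the full palindrome TGACGTCA, which counts as 2 overlapping half-sites, and the Btg1 window held 1 half-site. TATAAA was found in the Btg1 and Tob1 windows. CAGCTG, an E-box that bHLH factors can bind, was found in 0 of the windows. Among all 32851 windows, 1.8% held TGACGTCA, 7.5% ACGTCA, 13.6% TATAAA and 16.3% CAGCTG. These motifs were chosen after the windows had been read. A match is a description of letters only, and a link to expression was not tested.

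The normalised totals of the 9 libraries lay between 17531558 and 22076409, and the steps between low values gave an estimate of 12649000 to 27584000 reads in 7 libraries and no clear estimate in the other two. The summed level of 8 radial glia markers was 104199 to 122277 in proliferating progenitors, 46275 to 69360 in differentiating progenitors and 5732 to 7096 in neurons. The 6 neuron markers found summed to 2034 to 5778, 32334 to 39437 and 133655 to 162565 in the same order. They include Tubb3, whose reporter set the neuron gate, so this sum is not an independent check of the labels. The 5 intermediate progenitor markers summed to 12160 to 17749, 44767 to 54272 and 9037 to 12620, highest in differentiating progenitors. Markers of cells outside this lineage also moved with the gates. The 8 red blood cell genes summed to 102551 to 255689 in proliferating progenitors, at most 2044 in differentiating progenitors and 198 to 275 in neurons. The 6 interneuron markers summed to 85 to 976, 442 to 2900 and 6934 to 8017 in stage order. Sums of 3 further lists were low and were lowest in neurons, as were Btg1 and Tob2. In stage order they were 152 to 225, 81 to 122 and 26 to 37 for 6 microglial genes, 138 to 1431, 76 to 123 and 11 to 37 for 4 meningeal genes, and 156 to 516, 171 to 226 and 27 to 77 for 6 endothelial genes. The microglial gene C1qa was at 0 in all 3 neuron libraries. The meningeal gene Lum was at 0 in all 3 libraries of differentiating progenitors, where Dcn of the same list, with 59, 66 and 62 reads, was higher than in proliferating progenitors, with 17, 27 and 49. The part of any of these cells in the values below was not tested.

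Btg2 served as a check of the labels, since its reporter set the gate, and it was given no test. It had 8952, 7032 and 9336 normalised reads in proliferating progenitors, 14022, 14635 and 19983 in differentiating progenitors, while neurons had 3299, 2645 and 3390. The libraries labelled positive for Btg2 were the highest in all cases and the neurons the lowest, with no overlap between any pair of groups. Cells labelled negative for Btg2 were low in its messenger RNA only by comparison, since their mean of 8440 ± 1234.4 lay above the 3111.3 ± 406.4 of neurons (SD, n = 3 each). The sources used here do not say whether transcripts of the reporter allele add reads to this row. Tubb3, the other gate gene, had 2511, 1557 and 1158 reads in proliferating progenitors, 10937, 13097 and 9711 in differentiating progenitors, while neurons had 50230, 48666 and 39932, in the order of the labels.

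Per kilobase of gene length, Btg2 was also the most abundant member at each stage. Its mean was 3077 normalised reads per kilobase in proliferating progenitors, 5911 in differentiating progenitors and 1134 in neurons. Among rows above 0 these levels stood at the 99.4th, 99.8th and 95.5th percentile. Tob1, Btg1 and Tob2 were close to each other in progenitors. In proliferating progenitors Tob1 had 635.3, Btg1 626.6 and Tob2 503.2 reads per kilobase, and in differentiating progenitors these were 644.5, 569.6 and 539.6. In neurons Tob1 stood apart at 532.1, against 288.3 for Tob2 and 275.5 for Btg1. Btg3 was scarce at each stage, with 9.497, 10.42 and 2.78 reads per kilobase, which put it at the 31.2nd, 32.5th and 20.4th percentile.

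**Figure D1:**
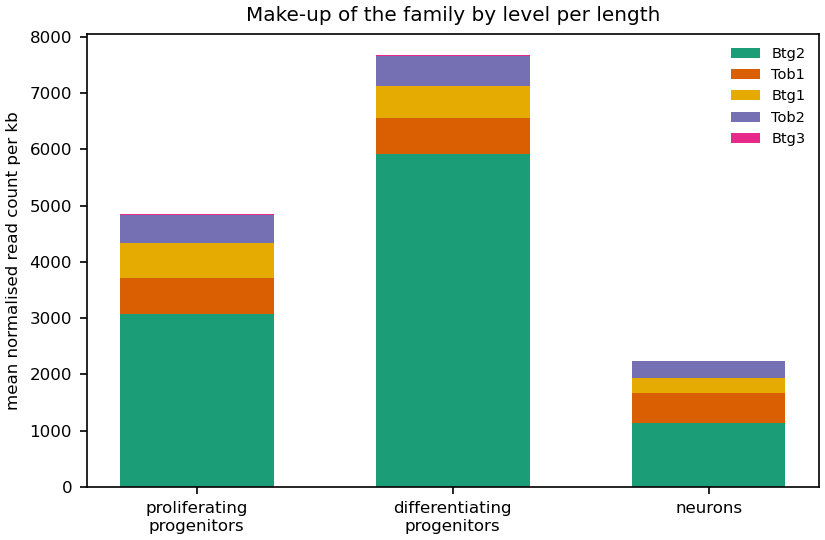
Stacked bars give the mean normalised read count per kilobase of the 5 genes in proliferating progenitors, differentiating progenitors and neurons (3 libraries each, main Tob2 row). Btg2, the gate gene, fills most of the bar in progenitors, and Btg3 is too low to be seen clearly. Tob1 takes a larger share of the lower bar in neurons.

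Shares of the family sum followed these levels. Btg2 made up 60.5% to 68.1% of the summed level per kilobase in proliferating progenitors, 69.9% to 82.6% in differentiating progenitors and 47.3% to 57.5% in neurons. Tob1 made up 11.1% to 15.1%, 6.26% to 10.9% and 20.3% to 27% in the same order, so that its share was highest in all 3 neuron libraries. Tob1 itself was not higher there, with means of 635.3, 644.5 and 532.1 reads per kilobase in stage order. Since the gate gene Btg2 is the largest part of the sum, the shares of the other genes move with it. Btg1 took 11.8% to 14.4%, 6.06% to 8.86% and 12% to 12.7%. The sum over all 5 genes was 4239 to 5315 reads per kilobase in proliferating progenitors, 6894 to 8821 in differentiating progenitors and 2004 to 2544 in neurons. Without the gate gene Btg2, the sum was 1597 to 2052, 1536 to 2197 and 915 to 1341 reads per kilobase, overlapping between the progenitor groups and lower in all 3 neuron libraries.

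The comparison of differentiating with proliferating progenitors asked whether the family shifts when a progenitor begins to make neurons. Apart from Btg2, 0 of the 4 members tested changed (limma, Benjamini-Hochberg adjusted p under 0.05), while 24.9% of all 15828 genes tested did. At an unadjusted p under 0.05 the count was also 0, as it was in the authors' deposited table at an adjusted p under 0.05. The background was 13.8% for genes called higher and 11.1% for genes called lower. A fit with the replicate number as a block called 1 of the 4, Btg1, lower. In neurons most of the 4 were lower. Against differentiating progenitors, 3 of the 4 members were lower, where 26.4% of all genes were called lower, 27.6% higher and 54% in either direction. Against proliferating progenitors, 3 of 4 were again lower, where 31.1% of genes were called lower, 32.2% higher and 63.3% in either direction. The 3 were Btg1, Btg3 and Tob2 in both comparisons, which share the neuron libraries. With the replicate block, and with total-sum scaling, Tob1 was called as well and the count was 4 of 4 in both comparisons. The authors' deposited table held 3 and 2 of the 4 at an adjusted p under 0.05. Since Btg3 passed the filter on low values only through its progenitor libraries, its place in these counts lends them no support. In bulk samples such as these, fewer cells of a type and less RNA per cell cannot be told apart.

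**Figure D2:**
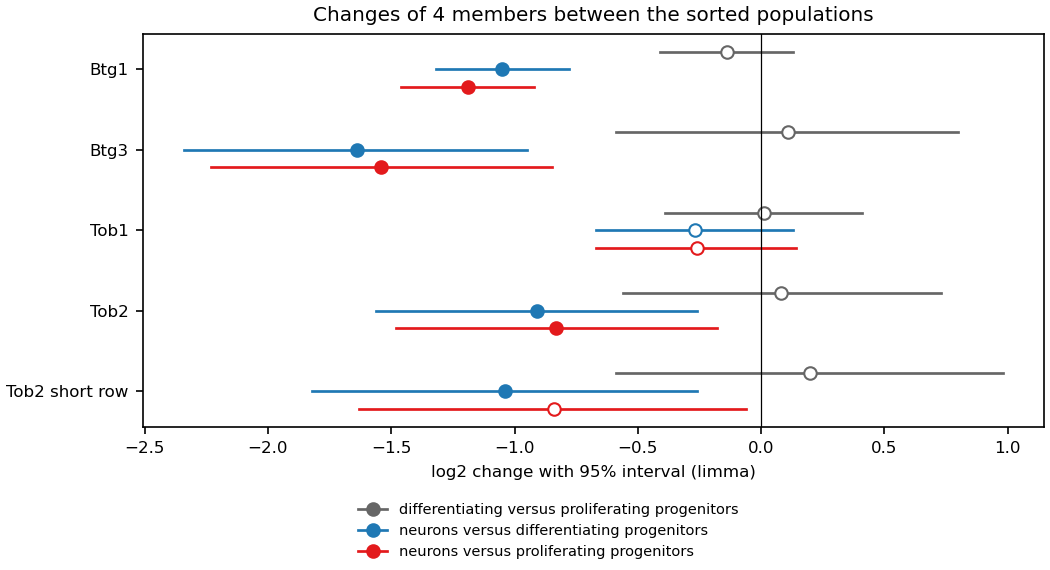
The log2 change of each tested row (points) with its 95% interval (lines) from limma on log2(value + 1), for differentiating versus proliferating progenitors, neurons versus differentiating progenitors and neurons versus proliferating progenitors. Filled points passed an adjusted p of 0.05: Btg1, Btg3 and Tob2 lie left of 0 in both comparisons of neurons, while Tob1 and all comparisons between the progenitor groups reach across 0, and the interval of the short Tob2 row against proliferating progenitors ends at -0.06 without passing the adjustment.

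Btg1, first found at a chromosome break in a human B-cell leukaemia and known as a gene of quiescent cells, was lower in neurons. Its estimated level there was below 0.5 of that of each progenitor group, with 95% intervals that reach above 0.5. Btg1 had 3413, 3048 and 2957 normalised reads in proliferating progenitors, 3245, 2637 and 2679 in differentiating progenitors, while neurons had 1578, 1272 and 1291. The progenitor groups overlapped, and each neuron library lay below each progenitor library. Neurons stood at 0.484 of the level of differentiating progenitors (95% interval 0.401 to 0.583), a log2 change of -1.05 ± 0.12 (SE) with an adjusted p of 6.31e-05 from limma. Against proliferating progenitors the fold was 0.439 (0.364 to 0.529) and the log2 change -1.19 ± 0.12, with an adjusted p of 1.93e-05. Groups lying apart in this way, with all 3 neuron libraries below, were found for 29.5% and 33.5% of all genes in these comparisons. Both calls held under each of the 19 alternatives run. In the authors' deposited table the folds were 0.48 and 0.44.

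Between the progenitor groups, Btg1 differed by a log2 change of -0.14 ± 0.12 (95% interval -0.41 to 0.13), which did not pass the test (adjusted p = 0.464). With the replicate number as a block the same change had an adjusted p of 0.0378. So Btg1 messenger RNA in differentiating progenitors averaged 2853.7 ± 339.6 reads, against 3139.3 ± 241.3 in proliferating progenitors (SD, n = 3 each), while its relative Btg2 averaged 16213.3 ± 3279 against 8440 ± 1234.4.

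**Figure D3:**
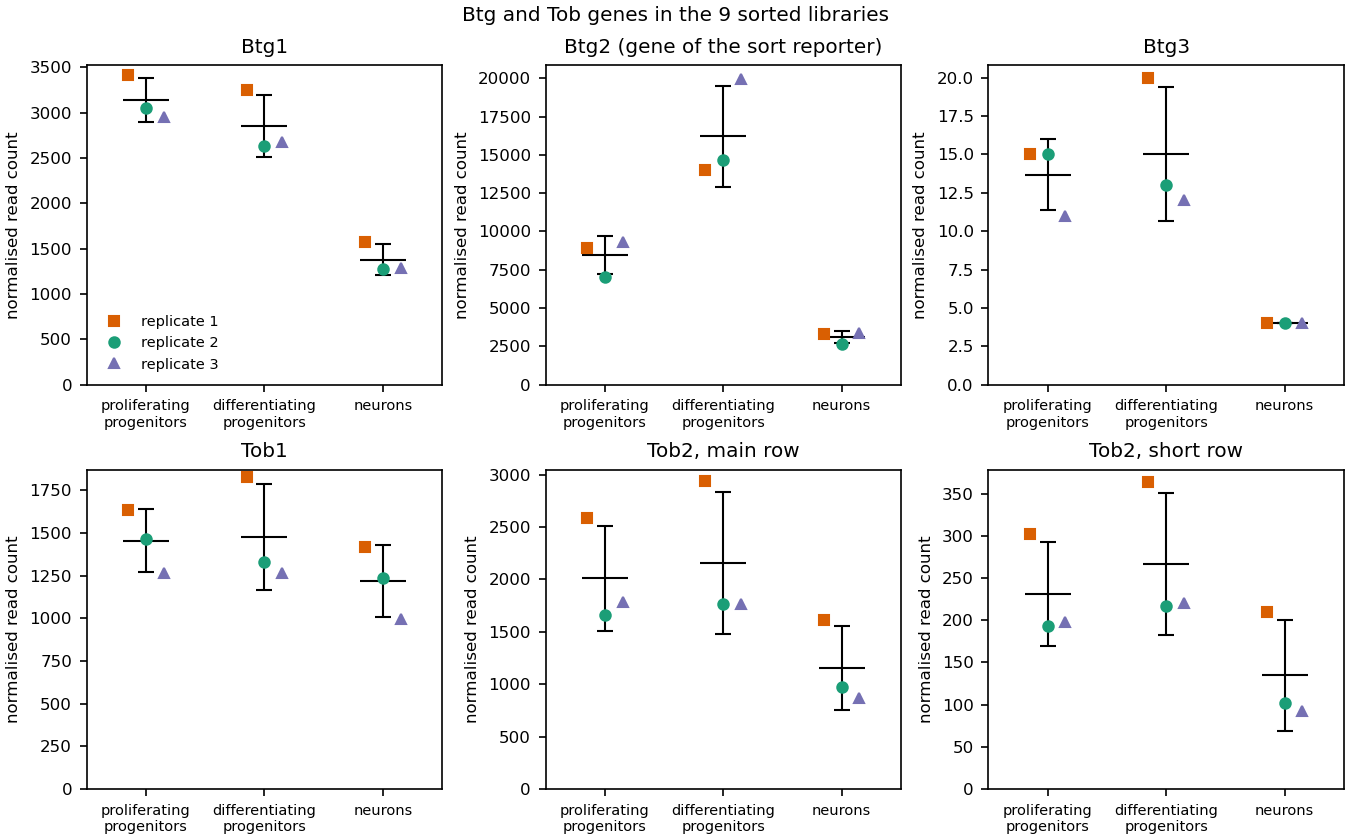
Normalised read counts of Btg1, Btg2, Btg3, Tob1 and both rows of Tob2 in each library, with squares, circles and triangles for replicates 1, 2 and 3, and bars for the mean ± SD of 3 libraries. Axes start at 0 and differ between panels: Btg1 and both Tob2 rows are lower in neurons, Btg2 is highest in differentiating progenitors, and the Tob1 groups overlap.

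Btg3, a member known to bind and inhibit the cell cycle factor E2F1, was barely detected in these cells. It had 15, 15 and 11 normalised reads in proliferating progenitors, 20, 13 and 12 in differentiating progenitors, while neurons had 4, 4 and 4. The progenitor groups overlapped and all neuron libraries were lower. The log2 change was -1.64 ± 0.31 against differentiating progenitors (limma adjusted p = 0.00148) and -1.54 ± 0.31 against proliferating progenitors (adjusted p = 0.00175), on the log2(value + 1) scale, which understates the change of low genes. With no filter on low values the adjusted p-values were 0.00229 and 0.00269. Between the progenitor groups the log2 change was 0.11 ± 0.31 (95% interval -0.59 to 0.8, adjusted p = 0.875).

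The row of the pseudogene Gm7334 held more reads than that of Btg3 in each library. Its deposited length is 1354 bases, against the 756 bases of the annotated copy that matched Btg3. How many of its reads lie outside the matched stretch is not known. In replicates 2 and 3 it had 42 and 35 normalised reads in proliferating progenitors and 36 and 22 in differentiating progenitors, while neurons had 8 and 6. Replicate 1 was the highest of its group at each stage, at 4.31, 4.76 and 3.43 times the mean of the other two, which came to 138 reads in differentiating progenitors and 24 in neurons. The ratio of Gm7334 to Btg3 was 11.07, 6.90 and 6.00 in replicate 1 of the stages in order, and between 1.5 and 3.18 in replicates 2 and 3. For Btg3 itself replicate 1 stood at 1.15, 1.60 and 1.00 times the mean of the other two.

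Summed over the rows of Btg3 and Gm7334, the reads were 181, 57 and 46 in proliferating progenitors, 158, 49 and 34 in differentiating progenitors, while neurons had 28, 12 and 10. All neuron libraries of this sum were below all progenitor libraries. Among all genes such an order was found for 29.5% against differentiating and 33.5% against proliferating progenitors. Gm7334 held most of the summed reads in each library, so the sum is no separate support for Btg3. For Gm7334 alone, the log2 change of neurons was -2.08 ± 0.82 against differentiating progenitors, which did not pass the test (limma adjusted p = 0.0573, or 1.84e-05 with the replicate block). Against proliferating progenitors it was -2.45 ± 0.82 (adjusted p = 0.0256), a call that was lost without replicate 1 of proliferating progenitors (-1.76, adjusted p = 0.0817) and without replicate 2 (-2.27, 0.0763) or 3 (-2.09, 0.0879) of neurons. Gm7334 passed the filter on low values only through its progenitor libraries, since in neurons only replicate 1 reached 10. Its call therefore lends those of Btg3 no support. The pseudogene of Btg1, Gm14519, had at most 3 reads in any library.

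**Figure D4:**
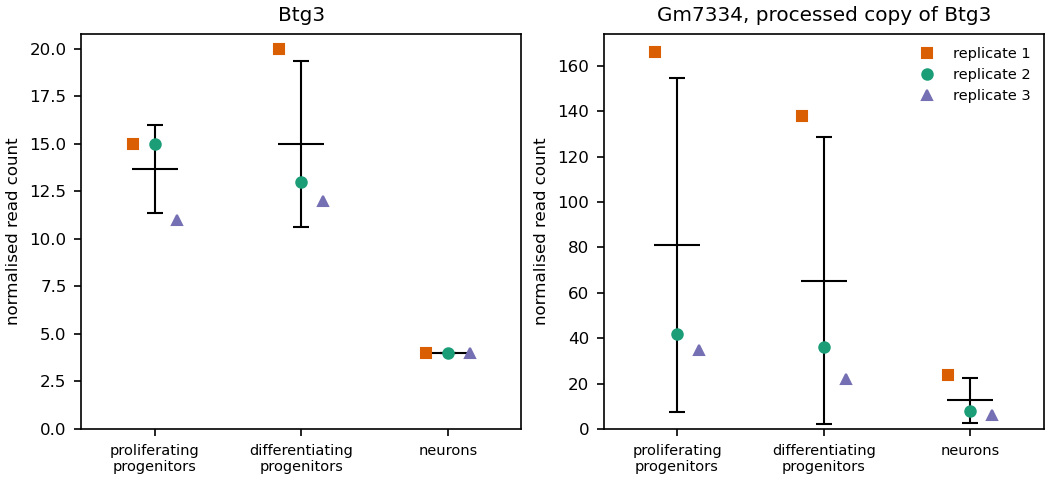
Normalised read counts of Btg3 and of its processed copy Gm7334 in each library, with squares, circles and triangles for replicates 1, 2 and 3 and bars for the mean ± SD of 3 libraries. Neurons are lowest in both panels except that replicate 1 of Gm7334 in neurons, at 24, lies above the 22 of replicate 3 in differentiating progenitors.

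Tob1, a member that binds Pabpc1 as well as the deadenylases, was the steadiest of the family. It had 1632, 1464 and 1265 normalised reads in proliferating progenitors, 1830, 1331 and 1263 in differentiating progenitors, while neurons had 1418, 1236 and 998. All 3 groups overlapped, although replicate 1 was the highest and replicate 3 the lowest at each stage. The log2 change of neurons was -0.27 ± 0.18 against differentiating progenitors (95% interval -0.67 to 0.13, limma adjusted p = 0.233) and -0.26 ± 0.18 against proliferating progenitors (-0.67 to 0.14, adjusted p = 0.229). Between the progenitor groups it was 0.01 ± 0.18 (-0.39 to 0.41, adjusted p = 0.986).

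These values of Tob1 moved with the handling of replicates and scale. Within replicate numbers, the neuron library was the lowest of the 3 stages each time, and the fit with the replicate block gave adjusted p-values of 0.00505 and 0.00525 for the same changes in neurons. When each library was scaled to its total, the changes were -0.49 and -0.55 (adjusted p = 0.0445 and 0.0229), with the median of all genes then at -0.23 and -0.31 instead of -0.01 and -0.02. The change between the progenitor groups turned to -0.06 under that scaling. An interval that reaches from -0.67 to 0.13 does not show that Tob1 was equal in neurons and progenitors.

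Tob2, the closest relative of Tob1, was also lower in neurons, with a wider spread than Btg1. Its main row had 2584, 1664 and 1781 normalised reads in proliferating progenitors, 2939, 1765 and 1761 in differentiating progenitors, while neurons had 1612, 971 and 871. Replicate 1 was the highest at each stage, at 1.5, 1.67 and 1.75 times the mean of replicates 2 and 3. All neuron libraries lay below all progenitor libraries, as for 29.5% of all genes against differentiating and 33.5% against proliferating progenitors. Neurons stood at 0.531 of differentiating progenitors (95% interval 0.338 to 0.832), a log2 change of -0.91 ± 0.29 (limma adjusted p = 0.0231). Against proliferating progenitors the fold was 0.563 (0.359 to 0.883) and the log2 change -0.83 ± 0.29 (adjusted p = 0.0302). Between the progenitor groups the log2 change was 0.08 ± 0.29 (-0.56 to 0.73, adjusted p = 0.895).

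The calls of Tob2 rested on few libraries. Against differentiating progenitors the call was lost without replicate 1 of differentiating progenitors (log2 change -0.67, adjusted p = 0.0724), without replicate 2 of neurons (-0.82, 0.0786) and without replicate 3 of neurons (-0.74, 0.0878). Against proliferating progenitors it was lost without replicate 1 of that group (-0.63, adjusted p = 0.0953) and without replicate 2 (-0.73, 0.0952) or 3 (-0.66, 0.11) of neurons. In the fit with the replicate block the adjusted p-values were 1.12e-06 and 1.63e-06. The authors' deposited table gave folds of 0.53 and 0.57 with adjusted p-values of 0.046 and 0.076.

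The short Tob2 row (ENSMUSG00000078960, 861 bases) carries the same symbol, and its identifier had no match in the reference annotation. It had 302, 193 and 198 reads in proliferating progenitors, 364, 217 and 220 in differentiating progenitors, while neurons had 210, 102 and 92. That is 10.5% to 13.0% of the main row in each library, with replicate 1 again the highest. In neurons its log2 change was -1.04 ± 0.35 against differentiating progenitors (limma adjusted p = 0.0298), a call that was lost without replicate 1 of differentiating progenitors (adjusted p = 0.097) or replicate 2 (0.101) or 3 (0.109) of neurons. It was -0.84 ± 0.35 against proliferating progenitors (adjusted p = 0.0585, or 0.000154 with the replicate block). Its overlap with the main row is unknown, so the rows are not 2 independent measures of Tob2.

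Across the 9 libraries the log2 levels of Btg1 and Btg3 had a Pearson r of 0.966, Tob1 and Tob2 0.889, and Btg1 and Tob2 0.878. Btg2 and Tob1 were least alike, at 0.412. These are descriptions over 9 libraries that share the same 3 stages and replicate numbers. By the same measure among 12063 other genes with a highest group mean of at least 100, the genes most like Btg1 were Peg12, Plagl2 and Dusp10 (r of 0.997 each). For Btg2 they were Alpk1 (0.995), Zfp760 (0.992) and AC158345.1 (0.992), and for Btg3 Ino80b (0.994), Rin2 (0.989) and 1110054O05Rik (0.987). Tob2 was closest to 1700123O20Rik (0.989), Fiz1 (0.989) and Rbbp6 (0.986). Tob1 had Tmem11 (0.969), Zfp871 (0.958) and Foxn3 (0.957) as its nearest genes, a looser likeness than for the other members. Likeness in profile did not mean likeness in size of change. Dusp10, a phosphatase of stress-activated kinases, averaged 785.3 reads in proliferating progenitors, 635 in differentiating progenitors and 57.7 in neurons, a far deeper fall than that of Btg1.

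The enzymes that the family recruits were measured in the same libraries, on lists chosen for their known contact with Btg or Tob proteins or for the steps that follow. Of 12 CCR4-NOT subunits, 2 were higher and 1 was lower in differentiating than in proliferating progenitors, with a median log2 change of 0.09 against -0.02 for all genes. In neurons against differentiating progenitors 0 were higher and 6 were lower (median -0.25, all genes -0.01), or 3 lower without replicate 1 of neurons. In neurons against proliferating progenitors 4 were higher and 4 lower (median -0.21, all genes -0.02), or 2 higher and 8 lower when libraries were scaled to their totals. Without replicate 3 of differentiating progenitors, or without replicate 3 of neurons, 2 were higher and 3 lower. The fit with the replicate block called 5 higher and 3 lower between the progenitor groups, and replicates 2 and 3 alone called 3 and 3. These shares are to be read against the 24.9%, 54% and 63.3% of all genes called.

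Cnot7 and Cnot8, the deadenylase subunits that the APRO domain binds, were higher in differentiating than in proliferating progenitors. They were the 2 of 12 subunits called higher there, a share near the 13.8% of all genes called higher. With the replicate block 5 of the 12 were called higher, and with replicates 2 and 3 alone 3 were. Neither Cnot7 nor Cnot8 fell in neurons, where Btg2 was lowest. Cnot7 averaged 2461.3 ± 109.1 normalised reads in proliferating progenitors, 3275 ± 68 in differentiating progenitors and 3471 ± 195.9 in neurons (SD, n = 3 each). Its log2 change was 0.41 ± 0.07 in differentiating against proliferating progenitors (limma adjusted p = 0.00341) and 0.08 ± 0.07 in neurons against differentiating progenitors (adjusted p = 0.381). Cnot8 averaged 1036.7 ± 10.2, 1512.3 ± 217.4 and 1680 ± 103.8 reads in stage order, a log2 change of 0.53 ± 0.11 between the progenitor groups (adjusted p = 0.00673). For both genes each library of differentiating progenitors lay above each library of proliferating progenitors. How many of all genes lay apart in this direction was not counted. All 19 alternatives kept both calls.

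Cnot6 and Cnot6l are the other deadenylase subunits. Cnot6 averaged 5014.3 ± 251.5, 5311.7 ± 58.7 and 4400 ± 90.6 reads in stage order, and its log2 change was -0.27 ± 0.07 in neurons against differentiating progenitors (limma adjusted p = 0.00756). Cnot6l averaged 1438, 1445 and 1232 reads and passed the test in 0 of the 3 comparisons (adjusted p = 0.971, 0.0537 and 0.0537). Cnot9, listed under its older symbol Rqcd1 and known to bind silencing factors, averaged 2479.7 ± 48, 2138 ± 67.7 and 1199.3 ± 65 reads. It had a log2 change of -0.83 ± 0.07 in neurons against differentiating progenitors (adjusted p = 1.08e-05) and -1.05 ± 0.07 against proliferating progenitors (1.55e-06). In differentiating against proliferating progenitors its log2 change was -0.21 (adjusted p = 0.0615), with each library of differentiating progenitors below each library of proliferating progenitors. Such an order was found for 18.8% of all genes. Tnks1bp1, a large protein found with the complex, passed the test as lower in all 3 comparisons. It averaged 2610, 1798.7 and 1332.7 reads in stage order, with log2 changes of -0.54 in differentiating against proliferating progenitors (adjusted p = 0.00526), -0.43 in neurons against differentiating progenitors (0.00654) and -0.97 in neurons against proliferating progenitors (3.06e-05).

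**Figure D5:**
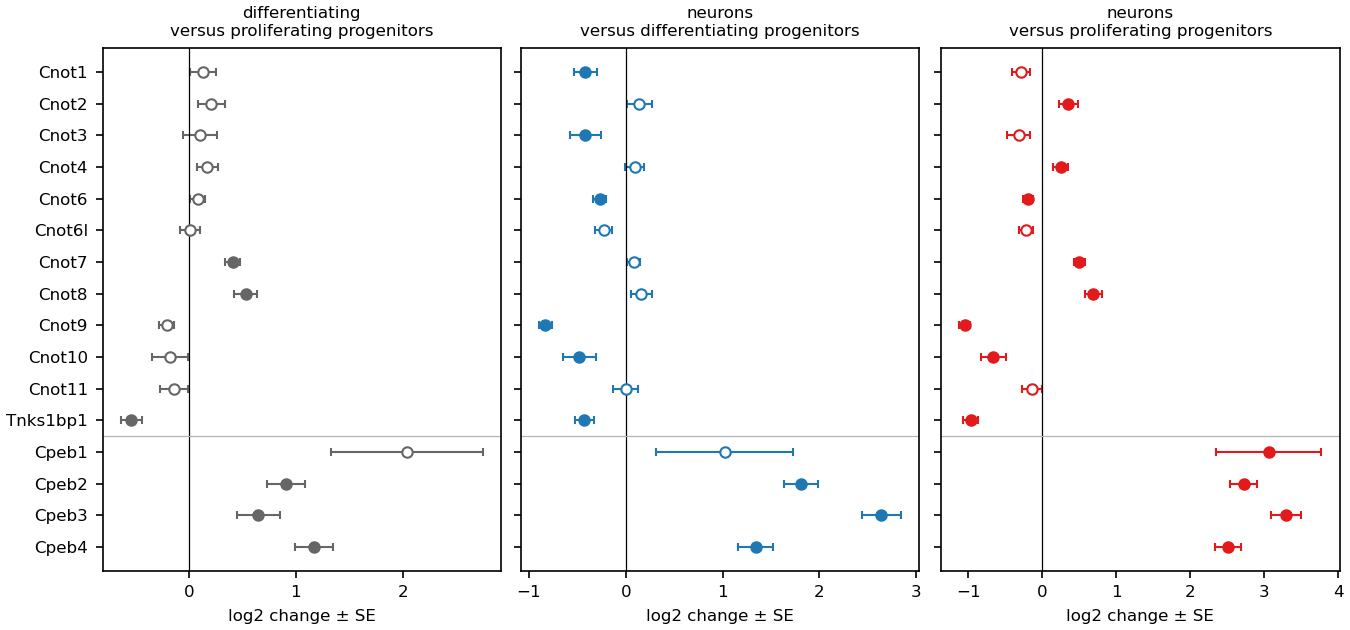
The log2 change ± SE from limma of 12 CCR4-NOT subunits (above the grey line) and 4 CPEB proteins (below it) in the 3 comparisons, with axes that differ between panels. Filled points passed an adjusted p of 0.05: Cnot7 and Cnot8 lie right of 0 in differentiating against proliferating progenitors, Cnot9 and Tnks1bp1 left of 0 in neurons, and Cpeb2, Cpeb3 and Cpeb4 right of 0 in neurons against proliferating progenitors. Cpeb1, also filled there, passed the filter on low values only through the groups where it was higher.

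CPEB proteins bind the 3' ends of messenger RNAs, and through them Tob was found to bring in the deadenylase in human cells. Their genes were higher in neurons, where Btg1 and Tob2 were lower. Of the 4 genes, 3 were higher in differentiating than in proliferating progenitors, 3 in neurons than in differentiating progenitors and 4 in neurons than in proliferating progenitors, with 0 lower in each. Over all genes 13.8%, 27.6% and 32.2% were called higher in these comparisons. The median log2 changes of the 4 genes, Cpeb1 included, were 1.04, 1.58 and 2.89, against -0.02, -0.01 and -0.02 for all genes. Cpeb1 had 0 to 7 reads in proliferating progenitors, 7 to 19 in differentiating progenitors and 19 to 36 in neurons, and it passed the filter on low values only through the groups where it was higher. Its call against proliferating progenitors therefore lends the count no support. Cpeb4 averaged 649.3 ± 177.6 reads in proliferating progenitors, 1429.3 ± 105.2 in differentiating progenitors and 3614.7 ± 285.3 in neurons. Its log2 change was 1.17 between the progenitor groups (limma adjusted p = 0.00147) and 1.34 in neurons against differentiating progenitors (0.00017). Cpeb2 averaged 95, 181 and 632.3 reads and Cpeb3 63.3, 99.3 and 621.7 in stage order, log2 changes of 2.72 and 3.29 in neurons against proliferating progenitors (adjusted p = 9.66e-07 and 5.86e-07). For Cpeb2, Cpeb3 and Cpeb4, each neuron library lay above each progenitor library. How many of all genes lay apart in this direction was not counted. In the opposite direction the share was 29.5% against differentiating and 33.5% against proliferating progenitors. The rise of Cpeb3 between the progenitor groups (log2 change 0.65, adjusted p = 0.0401) was lost in 10 of 19 alternatives. Neuron and interneuron markers, given above, moved with these genes, and their part was not tested.

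Of 10 other deadenylases and poly(A)-binding proteins, 0 changed between the progenitor groups in the limma fit (0 also at an unadjusted p under 0.05, and 3 with the replicate block), 2 were higher and 2 lower in neurons against differentiating progenitors, and 2 were higher and 3 lower against proliferating progenitors. With 54% and 63.3% of all genes called in these comparisons, the 4 and 5 genes called were no larger a share than the background. With the block the counts in neurons were 4 higher and 3 lower, and 5 higher and 3 lower. With total-sum scaling they were 2 higher and 4 lower, and 2 higher and 3 lower. Pabpc1, the poly(A)-binding partner of Tob proteins, averaged 5549.7 ± 1146.2 reads in neurons, against 10689 ± 1658.1 in proliferating progenitors (log2 change -0.96, adjusted p = 0.00182). Angel1, related to the Ccr4 enzymes, was higher in neurons than in differentiating progenitors by a log2 change of 1.35 (adjusted p = 1.44e-05), and Ccrn4l, the deadenylase-like Nocturnin, by 0.69 (0.00561). Pan2, the nuclease of another main deadenylase complex, had a log2 change of -0.55 in the same comparison (0.00562).

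Decapping follows deadenylation, and of 9 genes of this step 0 were higher and 1 lower in differentiating than in proliferating progenitors, or 1 and 2 with the replicate block. In neurons 3 were higher and 2 lower against differentiating progenitors, or 0 and 4 when scaled to library totals. The count of higher genes was 1 without replicate 1 of either progenitor group or without replicate 1 or 3 of neurons, and 0 without replicate 3 of differentiating progenitors or replicate 2 of neurons, with 2 lower each time. Against proliferating progenitors 1 was higher and 3 were lower. These 5 and 4 of 9 genes stand beside 54% and 63.3% of all genes called, so the list was near or below the background in neurons. Dcp2, the decapping enzyme itself, was lower at each step. It averaged 4242.7 ± 288.8 reads in proliferating progenitors, 3085.7 ± 497.5 in differentiating progenitors and 1843.3 ± 104.9 in neurons. Its log2 change was -0.47 between the progenitor groups (limma adjusted p = 0.018) and -0.73 in neurons against differentiating progenitors (0.00056). The first of these calls was lost in 4 of 19 alternatives, without replicate 1 or 2 of proliferating progenitors (adjusted p = 0.0527 and 0.0518) and without replicate 2 or 3 of differentiating progenitors (0.0726 and 0.0714). Dcp1a, an activator of Dcp2, had a log2 change of -0.45 in neurons against differentiating progenitors (0.00341). Ddx6, a helicase of the decay machinery, had 0.27 (0.0192), or 0.06 (0.584) when libraries were scaled to their totals.

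The last list held 5 proteins reported to bind members of the family, the methyltransferase Prmt1 and the BMP mediators Smad1, Smad4, Smad5 and Smad9. Between the progenitor groups 0 of 5 changed in the limma fit (0 also at an unadjusted p under 0.05, and 3 with the replicate block), with 24.9% of all genes called. In neurons 1 was lower against differentiating progenitors, and 1 was higher and 2 were lower against proliferating progenitors, where 54% and 63.3% of all genes were called. Smad9 fell to a mean of 1.3 reads in neurons, against 14.3 in differentiating progenitors (adjusted p = 0.00137), and passed the filter only through its progenitor libraries. Against proliferating progenitors Smad1 had a log2 change of 0.43 (adjusted p = 0.0038), or 0.14 (0.22) when scaled to totals, and Smad5 one of -0.3 (0.0196), a call lost without replicate 1 (0.0633) or 2 (0.0605) of proliferating progenitors or replicate 3 of neurons (0.0668).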

How the data were processed

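Strand-specific poly-A RNA-seq libraries were analysed from the table the authors deposited. The submitters' processing notes name DESeq 1.8.1, bedtools 2.11, BWA, CASAVA 1.8.0 and the build mm9, with no role or order for any of them. For each gene the authors deposited a score in each library, a read count normalised and rounded to a whole number. The file headers name Ensembl version 61. Deposited folds (the ratio of group means), adjusted p-values and gene lengths in bases came with them.

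The 15828 genes that reached 10 in 3 or more libraries were tested on log2(value + 1) by limma (version 3.58.1, R 4.3.3, trend on intensity), in 1 fit of 9 libraries with a mean for each of 3 groups (6 residual degrees of freedom), with p-values adjusted by Benjamini-Hochberg over all of them (threshold 0.05). Python 3.11.15 did the rest. The fit was tested on simulated data. All 3 comparisons share libraries. The p-values measure the spread between these pools.

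A pairing of libraries of equal number was inferred from the values, since the sample titles state no pairing. The titles give a replicate number and a serial number, and the serial numbers are consecutive across the groups within each replicate number. After removal of group means, all 9 same-numbered pairs correlated across genes (r of 0.507 to 0.767), other pairs from -0.64 to 0.428. Among these other pairs, all with replicate 1 were negative, and those between replicates 2 and 3 lay at 0.272 to 0.428. A fit with the replicate number as a block (4 residual degrees of freedom) stands beside results it changes.

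The family, the 5 partner lists (40 genes) and the markers were chosen with earlier results of these data known. All members are named, and of each partner list up to 3 called genes per comparison with the smallest adjusted p, plus Cnot6, Cnot6l, Cnot7 and Cnot8. Alternatives were total-sum and median-ratio scaling, other pseudocounts and filters, no trend, only the groups compared, the block, replicates 2 and 3 alone, and leaving out each library. Loci and transcripts came from GENCODE M21 (GRCm38), promoters from RefSeq (GRCm38.p6).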

Additional observations from a re-analysis of the deposited data

How the results depend on the processing

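Apart from the block, the number of members called stayed at 0 between the progenitor groups in the alternatives run; with the replicate block it was 1. Leaving out 1 library at a time it ranged from 0 to 0 there, from 2 to 3 in neurons against differentiating progenitors and from 2 to 3 in neurons against proliferating progenitors. The calls of Btg1 in neurons held in each alternative. Those of Btg3 held in each alternative that gave a value, and a filter at 50 left Btg3 untested. Since Btg3 passed the filter on low values only through its progenitor libraries, this lends its calls no support. Between the progenitor groups, where 0 members were called, several signs turned. Without 1 library, the log2 change ranged from -0.11 to 0.24 for Btg3, -0.16 to 0.11 for Tob1, -0.16 to 0.28 for Tob2, -0.05 to 0.4 for its short row and -1.13 to 0.32 for Gm7334. With replicates 2 and 3 alone it was -0.04 for Btg3 and -0.07 for Tob1, and with total-sum scaling -0.06 for Tob1. Cnot4, named here only for this, had a log2 change of -0.03 (adjusted p = 0.756) in neurons against proliferating progenitors with total-sum scaling, and 0.25 otherwise. Over all genes, 3944 changed between the progenitor groups without the block and 7282 with it. With total-sum scaling, 3353 genes were higher and 5589 lower in neurons against differentiating progenitors (4368 and 4183 otherwise), and 3869 and 6605 against proliferating progenitors (5099 and 4924 otherwise). The cause was not tested. Apart from the values given here and in the results above, the block changed no call of a member. Counts near those of Btg3 limit the precision of its folds.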
